A study of Mus musculus with 4 samples.

Results

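The iron genes described here are 9 of the 22913 genes listed for dermal white adipose tissue (dWAT) of mice. They are Tfrc, Slc11a2 and Steap3 on the uptake side, Fth1 and Ftl1 for storage, Slc40a1 and Cp for export, Hmox1 for release of iron from heme, and Ireb2 for regulation. They were taken by gene symbol from a list of iron genes, and the list was chosen on these data, because Tfrc was among the genes with the largest falls in old telogen dWAT. The telogen values of Tfrc are therefore a description and not independent evidence of a fall. All 9 had an FPKM (fragments mapped to a gene, scaled to the length of its listed feature and to the depth of the library) of at least 1 in all 4 libraries.

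Cells take up iron bound to transferrin through the transferrin receptor TFRC, the endosomal reductase STEAP3 reduces it, and the transporter SLC11A2 carries it into the cytosol. Iron that is not used is stored inside ferritin, a shell built of the heavy chain FTH1 and the light chain FTL1, or leaves through ferroportin, the product of Slc40a1. When iron is scarce, the iron regulatory proteins, one of which is encoded by Ireb2, bind hairpins called iron-responsive elements (IREs) in messenger RNA. Binding in a 3′ UTR, as in Tfrc, protects the message, and binding in a 5′ UTR, as in the ferritins and ferroportin, blocks translation without removing the message. The level of ferritin RNA is for that reason not the level of ferritin protein, and neither protein nor iron was measured here.

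The study asked how dWAT, the fat layer around the lower parts of hair follicles (HFs), differs with age in the resting phase of the hair cycle (telogen) and in the growth phase (anagen). RNA sequencing gave 1 library for each of OTD (old, telogen), YTD (young, telogen), OAD (old, anagen) and YAD (young, anagen), all from dWAT microdissected from the skin of C57BL/6 mice, with anagen started by depilation. The old mice were 18 months and the young mice 2 months old by the treatment protocol, whereas the age tag disagrees for 2 of the libraries (18 months on YTD, 2 months on OAD), and the groups were taken from the titles. By the study's methods a library stands for the tissue of a group of mice, so values of single mice cannot be separated. With 1 library per group there is no spread between replicates, no test between groups and no p-value. Each comparison is one between 2 libraries, given as a difference of log2(FPKM + 1), and a difference of at least 1 in size is called past the threshold.

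The estimated depth was 17600000 to 24100000 fragments per library. The 95% intervals given with the values are Poisson intervals at this rough depth and cover counting error only. Genes encoded by mitochondria took, as a share of all FPKM, 44.7% in YTD, 52.7% in OTD, 14.5% in YAD and 18.3% in OAD. Adipocyte markers were present in all libraries, with summed FPKM over 14 genes from 2115 in YAD to 8455 in OTD, but 20 skeletal muscle markers summed to 14240 to 128000 and exceeded them in each library. In such bulk samples fewer cells of a type and less RNA per cell cannot be told apart.

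The stretches of the members that match an IRE pattern are shown with the side of the coding sequence on which they lie. Regulation through them was not measured. A motif was searched on the transcript strand in the UTRs of protein-coding GENCODE M21 transcripts (GRCm38) of 21328 listed genes, as a C, 5 bases, the loop CAGTGN and 5 bases that pair with the former 5, with G:T pairs allowed. The 6 capital letters mark the loop, and each sequence is read 5′ to 3′ on the strand of the gene.
Fth1 5′ UTR, exon 1 of 4, chr19:9982738-9982754, plus strand: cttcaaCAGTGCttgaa
Ftl1 5′ UTR, exon 1 of 4, chr7:45459785-45459801, minus strand: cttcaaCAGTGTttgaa
Slc40a1 5′ UTR, exon 1 of 8, chr1:45925471-45925487, minus strand: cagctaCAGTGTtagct
Slc11a2 3′ UTR, exon 16 of 16, chr15:100395159-100395175, minus strand: cagagcCAGTGTgtttc
Tfrc 3′ UTR, exon 19 of 19, chr16:32631225-32631241, plus strand: cggaagCAGTGCcttcc
Tfrc 3′ UTR, exon 19 of 19, chr16:32631604-32631620, plus strand: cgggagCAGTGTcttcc
Tfrc 3′ UTR, exon 19 of 19, chr16:32631669-32631685, plus strand: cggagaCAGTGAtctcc
Tfrc 3′ UTR, exon 19 of 19, chr16:32631716-32631732, plus strand: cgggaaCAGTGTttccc

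The motif with all 5 pairs was found in 4 of the 9 members, against 158 of all 21328 genes searched (0.741%), of which 31 held it in the 5′ UTR and 127 in the 3′ UTR. These 4 are the ferritins, ferroportin and Tfrc, named above as genes with known IREs, and the pattern searched is that of an IRE. The contrast was thus fixed by the choice of pattern and genes and is not a result. Tfrc was the only gene of the 21328 with more than 1 such motif in its 3′ UTR, and its 4 copies begin 889, 1268, 1333 and 1380 bases after the end of the coding sequence. The Slc11a2 motif has 4 of the 5 pairs and starts 38 bases after the coding sequence. Matches with 4 pairs were not counted over all genes. No match was found in the UTRs of Steap3, Cp, Hmox1 and Ireb2, which says only that these letters are not there. A match is a description of sequence and not a measured binding site.

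**Figure D1:**
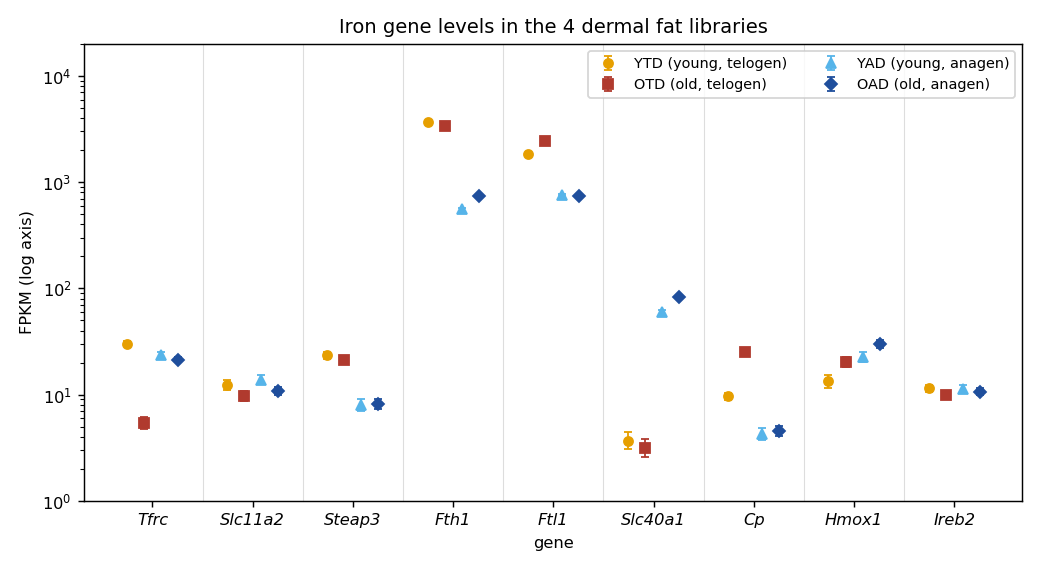
FPKM (log axis) of the 9 iron genes in the 4 libraries, 1 point per library, with 95% Poisson counting intervals that are hidden by the marker where narrow. Tfrc in OTD (5.39) lies below the other 3 libraries (21.3 to 30.3), the ferritins are lower in both anagen libraries, and Slc40a1 is higher in both.

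Counted together, 2 of the 9 members were past the threshold between the telogen libraries, Tfrc lower and Cp higher, where 2.71% of all 22913 genes and 4.78% of the 12982 genes that reached an FPKM of 1 in either library were. The telogen comparison is the one that chose Tfrc, so nothing is read from this count. Between the anagen libraries none of the 9 was past the threshold, against 0.908% of all genes and 1.59% of 13068 that reached an FPKM of 1. From telogen to anagen 5 of 9 were past it in young dWAT (Slc40a1 higher, Fth1, Ftl1, Steap3 and Cp lower), where 25.2% of all genes and 42.0% of 13738 were. In old dWAT 6 of 9 were (Slc40a1 and Tfrc higher, the same 4 lower), where 24.5% of all genes and 40.5% of 13847 were. After rescaling to TPM, transcript shares that sum to the same total in every library, the young count was 3, with 2 higher and 1 lower, and the old count stayed at 6, with 3 higher and 3 lower. Under TPM 31.3% of all 22913 genes were past it in young (5891 higher, 1274 lower) and 28.0% in old dWAT (4923 higher, 1502 lower). The median difference of the 9 was -0.14 between ages in telogen, 0.03 in anagen, -0.36 from telogen to anagen in young and 0.09 in old dWAT, beside medians of -0.06, 0.00, 0.03 and 0.05 over the genes that reached an FPKM of 1.

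**Figure D2:**
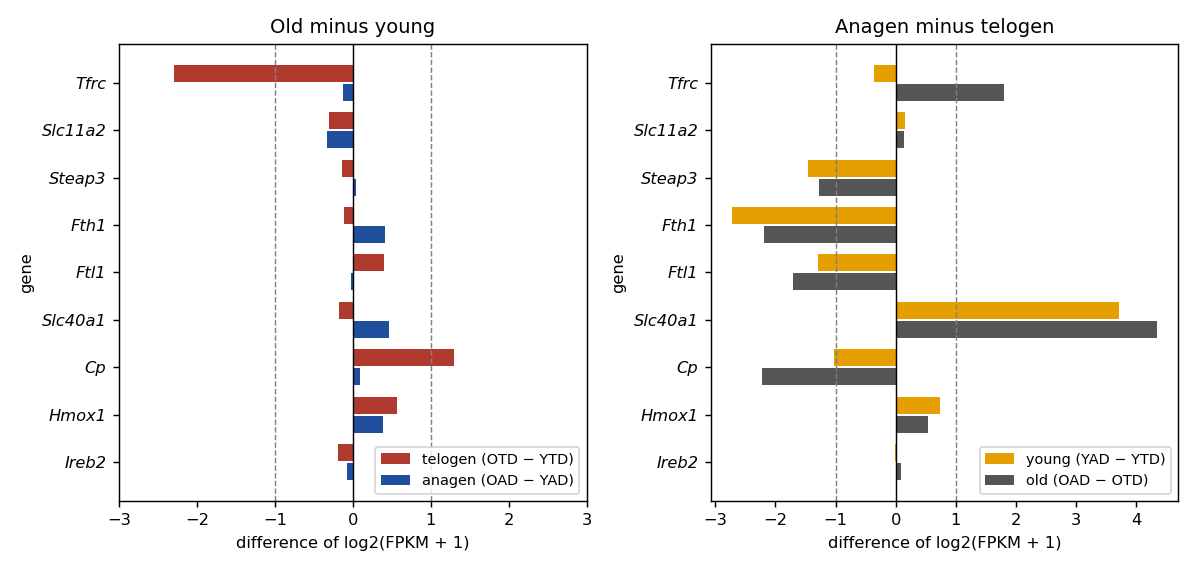
Differences of log2(FPKM + 1) for the 9 iron genes, old minus young (left) and anagen minus telogen (right), 1 bar per pair of libraries, with dashed lines at the threshold of 1. Only Tfrc (-2.29) and Cp (1.30) pass the lines with age, both in telogen, and Slc40a1 has the longest bars between phases (3.71 and 4.35).

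Tfrc (ENSMUSG00000022797, chr16:32608920-32632794, plus strand), the gene of the receptor for iron-loaded transferrin, was low in 1 library of the 4. Its FPKM was 30.3 in YTD, 5.39 in OTD, 23.4 in YAD and 21.3 in OAD, from an estimated 1297, 245, 942 and 1178 fragments. The counting intervals were 28.6 to 32.0 in YTD, 4.74 to 6.11 in OTD, 21.9 to 24.9 in YAD and 20.1 to 22.6 in OAD, so OTD stood apart from the rest, YTD was highest and the intervals of OAD and YAD overlapped. Between the telogen libraries the level was 5.61-fold lower in OTD (counting interval 4.90 to 6.46), a log2 difference of -2.29, which ranked 5 from the lowest of the 12982 genes that reached an FPKM of 1 in either library. In OTD, 64.1% of all listed genes had a lower FPKM than Tfrc, against 84.1 to 88.2% in the other libraries. Between the anagen libraries the log2 difference was -0.13. From telogen to anagen Tfrc was 3.95-fold higher in old dWAT (3.44 to 4.56), a log2 difference of 1.80, while in young dWAT it was -0.36, or 0.46 after rescaling to TPM.

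The remaining uptake genes did not set OTD apart. Slc11a2 (ENSMUSG00000023030, chr15:100387898-100425072, minus strand), the transporter that moves iron from the endosome into the cytosol, had an FPKM of 12.3 in YTD, 9.72 in OTD, 13.8 in YAD and 10.8 in OAD. These are 1.26-fold lower in OTD than in YTD (1.09 to 1.47) and 1.28-fold lower in OAD than in YAD (1.12 to 1.47), and libraries next to each other by level had overlapping intervals. The gene overlaps Gm5475 on the opposite strand, which was at an FPKM of 0.0707 or less, and the strand setting of the counting was not given in the sources used here. Steap3 (ENSMUSG00000026389, chr1:120190757-120272705, minus strand), the endosomal ferrireductase, was separated by phase. Its FPKM was 23.6 in YTD and 21.3 in OTD, and 7.98 in YAD and 8.20 in OAD. The pair of each phase had overlapping intervals, and the anagen value was 2.95-fold lower in young (2.53 to 3.45) and 2.60-fold lower in old dWAT (2.27 to 2.98). After rescaling to TPM the log2 differences went from -1.45 to -0.67 and from -1.28 to -0.71, both under the threshold.

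The ferritin genes were among the most abundant listed, and their level followed the phase. Fth1 (ENSMUSG00000024661, chr19:9982703-9985092, plus strand), the heavy chain that oxidizes iron on entry, had an FPKM of 3658 in YTD, 3386 in OTD, 555 in YAD and 737 in OAD. By level it ranked 30 and 28 among all genes in YTD and OTD and 200 and 187 in YAD and OAD, and no counting intervals overlapped. Ftl1 (ENSMUSG00000050708, chr7:45457944-45459884, minus strand), the light chain, had an FPKM of 1859 in YTD, 2451 in OTD, 759 in YAD and 748 in OAD, with overlapping intervals for the anagen libraries only. From telogen to anagen Fth1 was 6.60-fold lower in young and 4.59-fold lower in old dWAT, and Ftl1 2.45-fold and 3.28-fold lower. After rescaling to TPM the log2 differences in young and old dWAT were -1.88 and -1.58 for Fth1 and -0.45 and -1.09 for Ftl1, so that Ftl1 in young dWAT was under the threshold. Summed over both chains, ferritin took 0.801% of the FPKM outside mitochondrial genes in YTD, 0.988% in OTD, 0.221% in YAD and 0.223% in OAD.

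The chains did not differ with age in the same way. In telogen Ftl1 was 1.32-fold higher in OTD than in YTD, whereas the Fth1 difference was small and its sign depended on the scaling (log2 -0.11 as deposited, 0.22 when mitochondrial genes were left out). In anagen the Fth1 log2 difference was 0.41 and that of Ftl1 -0.02. The FPKM of Fth1 divided by that of Ftl1 in the same library, a ratio no rescaling alters, was 1.97 in YTD, 1.38 in OTD, 0.731 in YAD and 0.985 in OAD. The heavy chain thus made up less of ferritin RNA in old than in young telogen dWAT, and more of it in old than in young anagen dWAT. Both ferritin genes have near-identical copies in the genome, so reads may be divided among them. The listed copy Ftl1-ps1 was at 1.32 to 4.47 and Fthl17a to Fthl17f were listed at 0 in all libraries.

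The rule reads Tfrc against ferritin, and in these ratios within each library both anagen libraries lay above both telogen libraries. Per 1000 FPKM of Fth1, Tfrc had 8.27 in YTD, 1.59 in OTD, 42.2 in YAD and 28.9 in OAD. Per 1000 FPKM of Ftl1 the values were 16.3, 2.20, 30.8 and 28.5 in the same order. OTD was lowest with either chain, 5.19-fold below YTD with Fth1 and 7.40-fold below it with Ftl1, and YAD was highest with both. The telogen part of this repeats the values by which Tfrc was chosen. Because Fth1 was lower in anagen, the ratio to Fth1 was 5.10-fold higher in YAD than in YTD although Tfrc itself was not higher there in the deposited values. The ratio to Ftl1 was 1.89-fold higher in YAD than in YTD, a smaller gap than that between YTD and OTD. Against Ireb2, which stayed nearly level, Tfrc gave 2.64 in YTD, 0.543 in OTD, 2.07 in YAD and 2.00 in OAD. The ratio of a receptor message to a ferritin message is a ratio of RNA levels, and iron load was not measured.

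**Figure D3:**
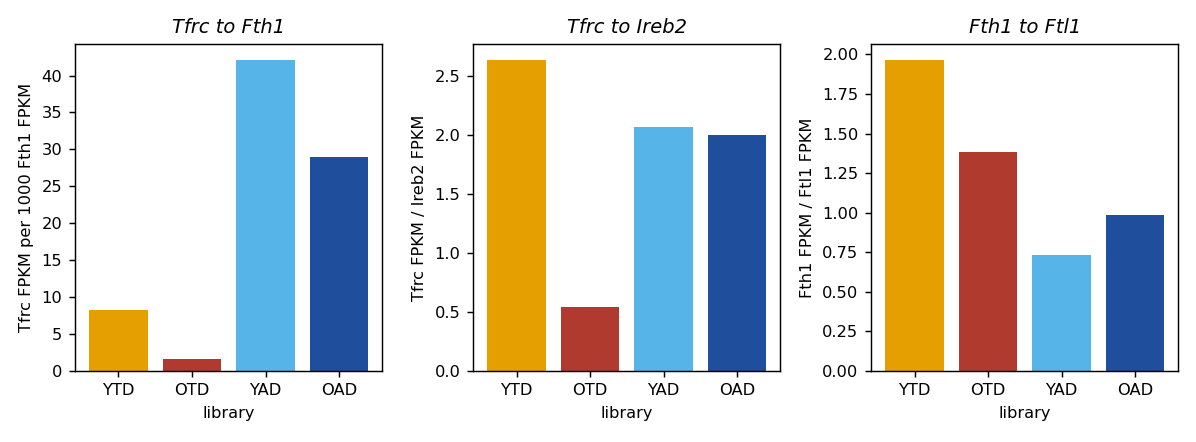
Ratios of FPKM within each library (bars from 0, 1 library per bar) for Tfrc per 1000 Fth1, Tfrc over Ireb2 and Fth1 over Ftl1. OTD is lowest in both Tfrc ratios (1.59 and 0.543), and Fth1 over Ftl1 is above 1 in the telogen libraries and below 1 in the anagen libraries.

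Slc40a1 (ENSMUSG00000025993, chr1:45908068-45926519, minus strand), which encodes ferroportin, the exporter through which iron leaves cells, had the largest difference between phases of the 9 genes. Its FPKM was 3.69 in YTD and 3.15 in OTD, and 60.1 in YAD and 83.6 in OAD. The telogen libraries had overlapping intervals (3.05 to 4.42 and 2.59 to 3.81), and both anagen libraries lay far above them. The level was 16.3-fold higher in anagen in young (13.6 to 19.8) and 26.5-fold higher in old dWAT (21.9 to 32.5). Between ages it was 1.39-fold higher in OAD than in YAD (1.31 to 1.47). Relative to storage, Slc40a1 had 1.01 and 0.932 per 1000 FPKM of Fth1 in YTD and OTD, and 108 and 113 in YAD and OAD.

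Cp (ENSMUSG00000003617, chr3:19957054-20009145, plus strand), the gene of ceruloplasmin, a copper protein that oxidizes iron released by ferroportin, was the other member past the threshold between the telogen libraries. Its FPKM was 9.63 in YTD, 25.1 in OTD, 4.23 in YAD and 4.56 in OAD. OTD was highest by a wide margin, YTD lay between, and the intervals of the anagen libraries overlapped. The level was 2.61-fold higher in OTD than in YTD (2.37 to 2.87), a log2 difference of 1.30, and 124 of the 12982 genes ranked as high or higher. In anagen the log2 difference with age was 0.09, or -0.11 after rescaling to TPM. From telogen to anagen Cp was 5.51-fold lower in old dWAT (4.92 to 6.20) and 2.28-fold lower in young dWAT (1.96 to 2.66), where rescaling to TPM brought the log2 difference from -1.02 to -0.30, under the threshold. Cp and its partner ferroportin were thus ordered in opposite ways by phase, with a ratio of Cp to Slc40a1 of 2.61 in YTD, 7.96 in OTD, 0.0703 in YAD and 0.0545 in OAD. Cp overlaps Hps3 on the opposite strand, and Hps3 was at 3.72 to 5.26 FPKM in the 4 libraries, so reads of the shared stretch may count for either gene in the anagen libraries, where both have like levels.

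Hmox1 (ENSMUSG00000005413, chr8:75093591-75100596, plus strand), whose enzyme opens heme and frees its iron, was higher in old than in young dWAT in both phases, short of the threshold. Its FPKM was 13.3 in YTD, 20.2 in OTD, 22.7 in YAD and 29.9 in OAD. The old value was 1.52-fold higher in telogen (1.28 to 1.81) and 1.32-fold higher in anagen (1.16 to 1.51). Only YAD and OTD had overlapping intervals. Ireb2 (ENSMUSG00000032293, chr9:54863755-54912534, plus strand), which encodes the iron regulatory protein IRP2, was the steadiest member, with 11.5 in YTD, 9.93 in OTD, 11.3 in YAD and 10.7 in OAD and a highest value 1.16 times the lowest. Libraries next to each other by level all had overlapping intervals.

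The wider iron list holds 71 further genes of uptake, storage, export, regulation, heme and iron-sulfur cluster assembly, all found in the files. With age, 3 of them were past the threshold in telogen, or 4.48% of the 67 above 0. These are 3 of the 60 that reached an FPKM of 1, near the 4.78% of all genes that reached it. In anagen 0 were past the threshold, where 1.59% of all genes that reached an FPKM of 1 were. Lcn2, the gene of lipocalin 2, which binds iron-carrying siderophores, had an FPKM of 4.82 in YTD and 16.3 in OTD, and 4.74 and 5.83 in YAD and OAD. Zfp36, whose product tristetraprolin removes messages with AU-rich ends, had 30.5 in YTD, 98.2 in OTD, 40.4 in YAD and 48.6 in OAD. Both had their highest value in OTD. Hjv, the gene of hemojuvelin, a co-receptor in hepcidin signaling that skeletal muscle also expresses, had 449 in YTD, 208 in OTD, 29.4 in YAD and 40.1 in OAD. Its telogen log2 difference of -1.11 was -0.77 when mitochondrial genes were left out, and then Pgrmc1, a heme-binding protein gene at 33.0 in YTD and 63.2 in OTD, made the third past the threshold. The skeletal muscle markers, given with the other cell types, were also lower in OTD and in anagen.

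Of 14 further genes of iron entry, 5 were higher by at least 1 in anagen in both ages and 2 were lower in both. Cybrd1, a ferrireductase at the cell surface, had an FPKM of 0.394 in YTD, 0.245 in OTD, 23.5 in YAD and 15.5 in OAD. Slc39a8, which carries zinc, manganese and iron that is not bound to transferrin, had 3.07, 2.01, 42.3 and 52.9 in the same order. The reductase genes Steap1 (0.303, 0.292, 9.10 and 10.1) and Steap2 (0.707, 1.25, 4.51 and 4.995) and the lipocalin receptor gene Slc22a17 (3.01, 4.14, 9.80 and 9.40) were also past the threshold in both ages. In each of these 5 genes both anagen libraries lay above both telogen libraries. Slc39a14, a like transporter, had 7.68, 5.95, 15.7 and 15.6, a log2 difference of 0.95 in young and 1.25 in old dWAT. Trf, the gene of transferrin itself, went the other way (218, 277, 57.8 and 71.6), as did Scara5, a ferritin receptor (13.1, 21.2, 3.78 and 2.81). In all, 7 of 14 uptake genes were past the threshold in young dWAT and 9 of 14 in old dWAT. These are 7 and 9 of the 11 that reached an FPKM of 1, beside 42.0% and 40.5% of all genes that reached it. The difference between the ages was not tested.

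Among genes of storage, mitochondrial import and export, Hephl1 and Slc25a37 stood with Slc40a1. Hephl1, a ferroxidase related to ceruloplasmin, had an FPKM of 1.01 in YTD, 0.395 in OTD, 39.1 in YAD and 50.8 in OAD. Cp, the ferroxidase among the members, was ordered the other way, so that Hephl1 was the lower of these in telogen and the higher in anagen. Slc25a37, which encodes mitoferrin 1, the carrier of iron into mitochondria, had 9.55, 6.60, 62.8 and 75.6 in the same order. Pcbp1, a chaperone that delivers iron to ferritin, had 106, 102, 213 and 220, and Pcbp2, its relative, 86.3, 85.8, 63.9 and 55.3. Hfe, which binds the transferrin receptor, was lower in anagen (29.4, 24.6, 6.26 and 5.48), and Neo1, which encodes the hemojuvelin-binding receptor neogenin, was higher (7.01, 5.33, 20.5 and 17.3). Hjv was 15.3-fold lower in anagen in young and 5.19-fold lower in old dWAT.

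Iron-sulfur clusters are made in mitochondria, and heme in mitochondria and cytosol. From telogen to anagen, 9 of 14 iron-sulfur assembly genes were lower by at least 1 in young dWAT and 6 in old dWAT. In each, 1 was higher, Ciapin1, which acts in the cytosol (29.2 in YTD, 24.9 in OTD, 70.3 in YAD and 69.4 in OAD). In all, 71.4% and 50.0% of the 14 were past the threshold, beside 42.0% and 40.5% of all genes that reached an FPKM of 1. After rescaling to TPM 3 of the 14 were lower past the threshold in young and 0 in old dWAT. Of all 22913 genes, 31.3% were then past it in young (5891 higher, 1274 lower) and 28.0% in old dWAT (4923 higher, 1502 lower). Isca1, an assembly factor in mitochondria, had 162, 113, 44.0 and 42.0 in the same order, and Bola3 116, 94.7, 25.4 and 36.0. Glrx5, the glutaredoxin of the pathway, was under the threshold (148, 92.4, 104 and 138). Iscu, Nfs1, Isca2, Nfu1 and Fdx1 were also among those lower past the threshold in young dWAT, and Isca2, Nfu1 and Hscb among those in old dWAT. In heme synthesis 2 of 9 genes (22.2%) were lower past the threshold in both ages as deposited, under the 42.0% and 40.5% of all genes. After rescaling to TPM 0 of the 9 were lower and 2 higher in both ages, under the 31.3% and 28.0% of all genes past it then. Alas1, the first enzyme, had 59.7, 49.1, 22.9 and 19.9, and Fech, which inserts iron into the ring, 65.3, 47.5, 19.1 and 16.7. Of 12 heme handling genes, 10 reached an FPKM of 1, and 2 in young and 4 in old dWAT were past the threshold as deposited. Hp, the gene of haptoglobin, which binds free hemoglobin, was the most abundant (449, 297, 275 and 372) and under the threshold. Blvrb, a biliverdin reductase gene (28.6, 37.9, 12.5 and 15.1), and Flvcr1, a heme exporter gene (15.2, 16.4, 5.29 and 5.43), were lower past it in both ages as deposited, and after rescaling to TPM 0 of the 12 were lower past it, with 2 higher in young and 1 in old dWAT. As deposited in old dWAT Pgrmc1 was lower (33.0, 63.2, 24.4 and 29.7) and Slc46a1, a heme and folate importer gene, higher (2.49, 1.97, 3.62 and 5.43).

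Over the whole wider list 27 genes were past the threshold from telogen to anagen in young dWAT, 9 higher and 18 lower, and 30 in old dWAT, 12 higher and 18 lower. These are 39.1% and 44.8% of those above 0, and 27 and 30 of the 62 that reached an FPKM of 1. Of all genes that reached it, 42.0% and 40.5% were past the threshold. After rescaling to TPM the splits were 18 higher and 7 lower in young and 18 higher and 5 lower in old dWAT, so which direction prevails depends on the scaling. Under TPM 31.3% of all 22913 genes were past it in young (5891 higher, 1274 lower) and 28.0% in old dWAT (4923 higher, 1502 lower). The genes listed as a whole thus turned toward higher values too. Of the regulators, Epas1, which encodes the hypoxia factor HIF-2 alpha, was lower in anagen (73.5, 77.1, 17.9 and 23.9) and was the only one of 7 past the threshold in young dWAT as deposited, while after rescaling to TPM 3 of the 7 were higher and 1 lower past it. Beyond the 9 genes the IRE motif was found in 2 of the 71, Alas2 in the 5′ UTR and Bola3 in the 3′ UTR.

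**Figure D4:**
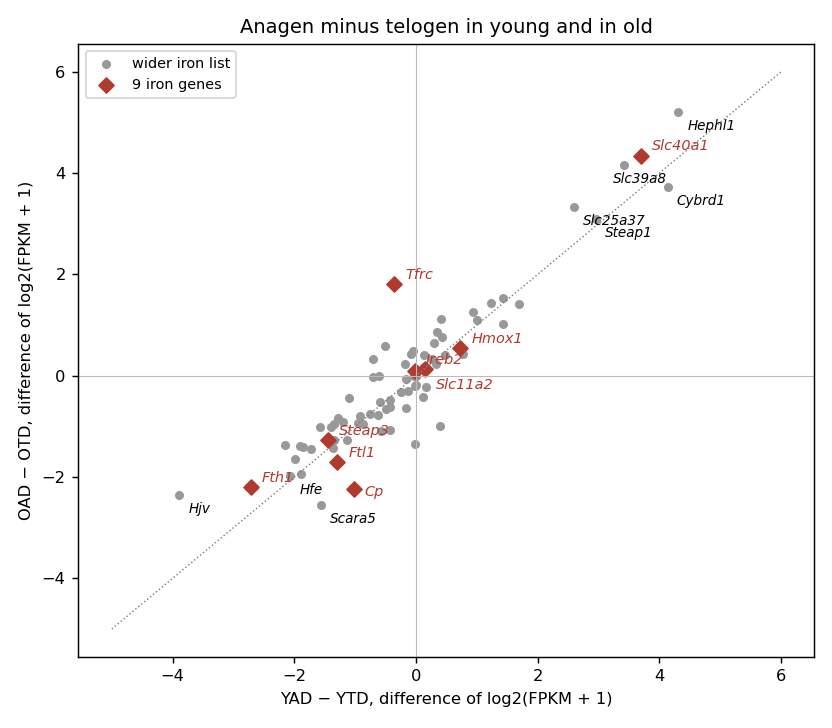
Difference of log2(FPKM + 1) from telogen to anagen in young (x axis) and old dWAT (y axis), 1 point per gene, for the 9 iron genes (diamonds) and the wider list (circles), with a dotted line where both are equal. Tfrc, at -0.36 and 1.80, lies above the line, and Slc40a1, at 3.71 and 4.35, lies with Hephl1, Slc39a8 and Cybrd1.

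Other tissue in the samples moved with these comparisons. Between the telogen libraries each of 20 skeletal muscle markers had the lower value in OTD, with a median log2 difference of -0.71 (-1.79 to -0.24) as deposited, and 19 of 20 when mitochondrial genes were left out. Their summed FPKM was 128000 in YTD, 80510 in OTD, 14240 in YAD and 18480 in OAD, with none at 0. Acta1, the actin of muscle fibers, had an FPKM of 27440 in YTD, 17990 in OTD, 2919 in YAD and 4106 in OAD, and Tnnc2, a muscle troponin, 13950, 9184, 1417 and 2139. Divided by muscle creatine kinase Ckm, Tfrc was 3.58-fold lower in OTD than in YTD, and divided by Acta1 3.68-fold, which repeats the values by which Tfrc was chosen. The muscle medians from telogen to anagen were -3.05 in young and -1.99 in old dWAT, beside the lower Fth1, Ftl1, Steap3, Hjv and iron-sulfur values. The part of muscle in those differences was not tested.

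Other markers gave a mixed picture beside the iron genes. Macrophages are rich in Slc40a1 and Hmox1 and adipocytes also express ferritin, as background. The summed FPKM of the macrophage markers was 515, 843, 139 and 109 in YTD, OTD, YAD and OAD. In telogen 12 of 13 macrophage markers were higher in OTD (median 0.38), with Lyz2 at 237 in YTD, 472 in OTD, 47.6 in YAD and 39.5 in OAD and C1qa at 80.6, 96.6, 27.6 and 23.9, and their medians from telogen to anagen were -1.42 and -2.05, where Slc40a1 was higher. The proliferation markers had median differences of 2.94 and 2.56 in anagen and -0.01 between ages in telogen, with Pcna at 31.2, 33.7, 81.0 and 71.5 and Birc5 at 2.77, 1.92, 36.1 and 34.3. Tfrc divided by Pcna was 0.970 in YTD, 0.160 in OTD, 0.289 in YAD and 0.298 in OAD, where the telogen part repeats the values by which Tfrc was chosen. Erythroid markers, of a lineage rich in TFRC, had a telogen median of 0.11 with none of 10 past the threshold, and Hbb-bs was at 254, 329, 88.4 and 132 and Hba-a2 at 162, 196, 61.1 and 106. Of the 11 erythroid markers matched, 5 reached an FPKM of 1 in either telogen library, and 4.78% of all genes that reached it were past the threshold. Gata1 and Alas2 of this list are named after their values were seen. Gata1, a marker of red cell precursors, was at an FPKM of 0.0302 or less in all libraries. Alas2 was at 2.07 in YTD, 2.97 in OTD, 1.18 in YAD and 1.53 in OAD. The part of these cells in the iron gene differences was not tested.

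Keratinocyte, fat and vessel markers divided the phases. Hair shaft markers had medians of 6.48 in young and 7.82 in old dWAT from telogen to anagen, with Krt71 at 137 in YTD, 79.8 in OTD, 3502 in YAD and 4503 in OAD and Tchh at 51.8, 32.2, 2693 and 4477. Epidermal markers had medians of 2.68 and 3.99, with Krt5 at 35.0, 19.2, 469 and 618 and Krt14 at 34.3, 27.6, 222 and 454. Adipocyte markers had medians of -1.63 and -1.40, with Cfd at 3216, 3401, 671 and 1070 and Fabp4 at 1873, 2880, 822 and 1155. Endothelial markers had medians of -1.54 and -1.85, with Egfl7 at 104, 143, 31.9 and 45.8 and Pecam1 at 69.1, 119, 18.3 and 23.9. Phase and the makeup of the samples therefore cannot be told apart for Slc40a1, Hephl1, Slc39a8 and the ferritins. Between ages in telogen, Tfrc divided by Adipoq was 8.55-fold and divided by Pecam1 9.67-fold lower in OTD. These ratios repeat the telogen values by which Tfrc was chosen.

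Pathways that also act on iron genes were read from their own lists. The 12 hypoxia response genes had a telogen median of -0.12 with age, with Aldoa at 12790 in YTD, 9046 in OTD, 2006 in YAD and 2771 in OAD and Ldha at 2733, 1447, 441 and 486. With age in telogen 4 of the 12 were higher and 8 lower (7 and 5 when mitochondrial genes were left out), and 1 was past the threshold as deposited, Ndrg1, at 51.9 in YTD and 111 in OTD, which was named after its values were seen. Of all genes that reached an FPKM of 1, 4.78% were past it in telogen. The 8 targets of NRF2, a factor known to act on Hmox1 and the ferritin genes, had medians of 0.18 between ages in telogen and 0.09 in anagen. None was past the threshold in either, where 4.78% and 1.59% of all genes that reached an FPKM of 1 were. From telogen to anagen their medians were 0.92 in young and 1.08 in old dWAT, with Txnrd1 at 36.3, 28.7, 79.0 and 84.4 and G6pdx at 13.6, 15.6, 79.4 and 83.9. They did not move alike, with 6 higher and 2 lower in young and 7 higher and 1 lower in old dWAT. In each age 4 were higher past the threshold and 1 lower. Of all genes that reached an FPKM of 1, 42.0% in young and 40.5% in old dWAT were past it in either direction. The lower target was Nqo1 (12.95, 20.1, 2.725 and 3.79), named after its values were seen. Hmox1 was 0.73 and 0.54, and the ferritins were lower.

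**Figure D5:**
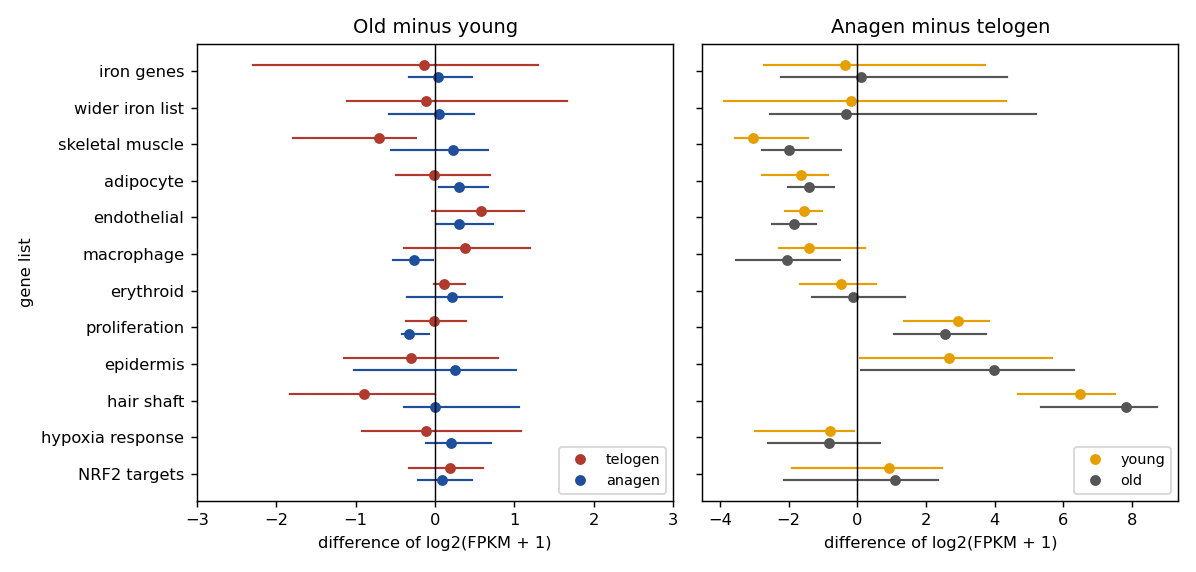
Median (point) and range (line) of differences of log2(FPKM + 1) within each gene list, old minus young (left) and anagen minus telogen (right). Between ages in telogen the skeletal muscle genes lie below 0 (median -0.71), and between phases the hair shaft genes lie farthest above it.

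The genes whose pattern over the 4 libraries was nearest that of Tfrc were Pnpla3, Ston2, Ankrd52, Hipk2 and Zfp532, by the Euclidean distance between log2(FPKM + 1) values centred on each gene's mean, over 10460 genes that reached an FPKM of 5 in any library. Pnpla3, a lipid hydrolase gene of fat and liver, was closest, at a distance of 0.54, with an FPKM of 15.2 in YTD, 4.30 in OTD, 11.9 in YAD and 12.2 in OAD. Ston2, at 0.70, had 10.1, 3.38, 8.93 and 9.22. The distances of Ankrd52, Hipk2 and Zfp532 were 0.72, 0.74 and 0.74. Each of the 5 was lowest in OTD and highest in YTD, as Tfrc was. The choice by nearness to Tfrc favors that order, so it is not a separate result. With 4 points there is little room to tell patterns apart.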

How the data were processed

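RNA sequencing of dWAT gave 1 library per group. The authors deposited FPKM for each gene, with its GRCm38 span and a feature length, and 97.0% of the lengths are multiples of 3, as coding lengths are. TopHat2 and bcl2fastq are named in the submitters' processing notes. The tool that computed FPKM, its annotation and any scaling between libraries are not given in the sources used here. Of 22913 features, 21750 were matched to a symbol, and Hjv through a synonym in the RefSeq gene table.

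FPKM were used as deposited, with a pseudocount of 1. Depth was estimated from the steps of FPKM times length in features of 2000 to 4000 bp. The members and lists were chosen with earlier results of these data known. Named were the 9 genes, wider-list genes past the threshold in any comparison, the 2 genes of highest mean FPKM of each list, and the 5 genes nearest Tfrc. Alternatives were pseudocounts of 0.1 and 0.01, a minimum FPKM of 1, a threshold of 1.5, TPM, the median of ratios, and rescaling without mitochondrial or without mitochondrial, muscle and keratin genes. Spans in GENCODE M21 equal the files' for 5 members. Steps were tested on simulated data. Python 3.11.15, numpy 2.4.6, pandas 2.3.3, scipy 1.17.1 and matplotlib 3.10.9 were used. Ahsp, Flg and Krt85 were not analysed here. Some genes of the lists are not reported here by name.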

Additional observations from a re-analysis of the deposited data

Results flagged for a closer look

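Tfrc had differences of opposite sign from telogen to anagen, log2 -0.36 in young and 1.80 in old dWAT, 2.16 apart. With 1 library per group this difference was not tested, and after rescaling to TPM the signs were alike (0.46 in young dWAT). The OTD value by which Tfrc was chosen enters it.

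Fth1 had age differences of opposite sign, log2 -0.11 in telogen and 0.41 in anagen, 0.52 apart, which was not tested either. The telogen sign turned to 0.22 when mitochondrial genes were left out.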

How the results depend on the processing

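Each comparison rests on 2 libraries, so leaving out a replicate was not possible, and the intervals cover counting error at an estimated depth only. No paired analysis was possible because each group has 1 library. Of the 36 member differences, 13 were past the threshold and all 13 kept their sign in each of 7 alternatives, 9 of them past the threshold throughout. The smaller pseudocounts cannot turn a sign or shrink a difference, and the minimum FPKM leaves the member values unchanged. Only the rescalings could therefore have altered these counts. Tfrc in telogen ranged from -2.49 to -1.98 and Cp from 1.27 to 1.60. Under TPM 3 members were past the threshold from telogen to anagen in young dWAT, Fth1 (-1.88), Slc40a1 (4.47) and, newly past it, Hmox1 (1.53). Ftl1 (-0.45), Steap3 (-0.67) and Cp (-0.30) fell under it. In old dWAT Steap3 fell under it at -0.71 and Hmox1 was newly past it at 1.14. TPM moved the median of all genes by 0.70 in the young and 0.50 in the old phase comparison and by -0.21 between ages in anagen, and leaving out mitochondrial genes moved it by 0.29 between ages in telogen and between phases in young dWAT. Relative to the median under TPM, Ftl1 was -1.14, Steap3 -1.36 and Cp -0.99 in young dWAT, and Tfrc -0.23. When mitochondrial genes were left out, the telogen signs of Slc40a1 (0.08), Steap3 (0.18) and Ireb2 (0.11) also turned. The wider list had 7 genes past the threshold with age in telogen with a pseudocount of 0.1 and 9 with 0.01, and 1 and 3 in anagen. A threshold of 1.5 left 1 of the 9 members in telogen with age (Tfrc), 2 from telogen to anagen in young dWAT, and 16 and 11 of the wider list from telogen to anagen in young and old dWAT. Of all genes, 0.615% passed 1.5 with age in telogen, and 14.3% and 13.9% between phases in young and old dWAT. The other 55 counts under alternatives stayed within 1.5 times.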
